A study of Homo sapiens with 6 samples.

Results

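Sestrins 1, 2 and 3 (SESN1, SESN2, SESN3), DDIT4, the tuberous sclerosis genes TSC1 and TSC2, and the AMPK beta subunits PRKAB1 and PRKAB2 encode proteins that restrain mTORC1. These 8 genes, of 19488 named on the array, were followed in HCT116 cells through 166 probe sets whose annotation gives a member as the only gene symbol, out of 1411399 probe sets in all. HCT116 is an established human colorectal carcinoma line, and the sample titles give every group as HCT116 +/+. Of the 6 arrays, 2 came from cells given Nutlin-3 (written Nutlin 3R in the labels), 2 from cells given 5-fluorouracil (5FU), and 2 from control cells, whose treatment the labels call none while the design text names DMSO; RNA was taken after 12 h. Nutlin-3 occupies the p53 pocket of MDM2 and so frees p53 from it, and 5FU is an antimetabolite that inhibits thymidylate synthase and enters RNA and DNA. The series title concerns genes called synthetic lethal with Nutlin-3; here the comparisons ask how each drug changed the transcripts of these mTORC1 brakes and whether the drugs differed. No dose was given in the sources used here, so the comparison of the drugs is of these treatments as given and not at matched doses.

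mTORC1 is the kinase complex that couples growth factors, amino acids and energy to protein synthesis and cell growth. Sestrins bind GATOR2 and thereby hold back the Rag GTPase branch that brings mTORC1 to the lysosome, and SESN2 is also a leucine sensor. DDIT4, also called REDD1, acts through the TSC1-TSC2 complex, which inactivates the small GTPase RHEB, the direct activator of mTORC1. AMPK, the energy-sensing kinase, phosphorylates TSC2 and the mTORC1 subunit raptor, and its beta subunits are the scaffold that joins the catalytic and gamma subunits and carries the glycogen-binding module. SESN1, SESN2, DDIT4, TSC2 and PRKAB1 have been described as p53 targets, SESN3 is best known as a target of FOXO factors, and SESN2 and DDIT4 also respond to ATF4 and DDIT4 to hypoxia.

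A gene's level is the mean of the deposited log2 values of its probe sets that lay above the filter on low values, a mean over the 6 arrays above 4.73. Every member had such a value, from 156 of the 166 probe sets. A difference of 1 on this scale is a 2-fold change. A gene passed the test when limma, fitted to 17841 genes, gave a Benjamini-Hochberg adjusted p below 0.05. MDM2, the ubiquitin ligase of p53 and itself a p53 target, had levels of 10.26 and 10.67 after Nutlin-3, 10.03 and 10.31 after 5FU, and 8.64 and 8.57 in control, and rose with both drugs (adjusted p = 0.0099 and 0.0283). CDKN1A, the CDK inhibitor p21, rose by 2.10 after Nutlin-3 (adjusted p = 0.00308) and by 1.78 after 5FU (adjusted p = 0.00751). Of 8 colonic epithelial markers 6 lay above the median gene, including EPCAM, KRT8 and KRT18, while ELF3 and VIL1 did not; COL1A1 was the single fibroblast marker of 4 measured that did, and 0 of 3 measured blood markers did, PTPRC among those below. In bulk RNA, more RNA per cell and more responding cells cannot be told apart.

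Of the 8 genes, 2 rose after Nutlin-3, SESN1 and DDIT4, and 0 fell, where limma called 0.359% of the 17841 genes higher and 0.858% lower. After 5FU 1 rose, SESN2, and 0 fell, where 0.331% of genes were called higher and 0.118% lower. Between the drugs 1 passed the test, DDIT4, which was higher after Nutlin-3, as were 0.0617% of genes, while 0.572% were lower. Both arrays lay above both control arrays in 6 of 8 genes after Nutlin-3 (16.2% of all genes) and in 6 of 8 after 5FU (20%), and below both in 0 after Nutlin-3 (18%) and in 1, TSC2, after 5FU (18%). Between the drugs the Nutlin-3 arrays lay above both 5FU arrays in 3 genes, SESN3, DDIT4 and TSC2 (20.8%), and below both in 3, SESN2, PRKAB1 and PRKAB2 (25.2%). At an unadjusted p below 0.05, 6 of the 8 were higher after Nutlin-3 (3.97% of all genes) and the same number after 5FU (6.66%). In each case these were the 3 sestrins, DDIT4 and both AMPK beta subunits. Such a p between the drugs, in either direction, was found for 2 of the 8, DDIT4 and PRKAB2 (13.3% of all genes). The median difference of the 8 genes was 0.73 after Nutlin-3 and 0.74 after 5FU, each relative to control, beside medians of 0.00062 and 0.00143 for all genes. The comparisons with control share the same control arrays, so they are not independent of each other.

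**Figure D1:**
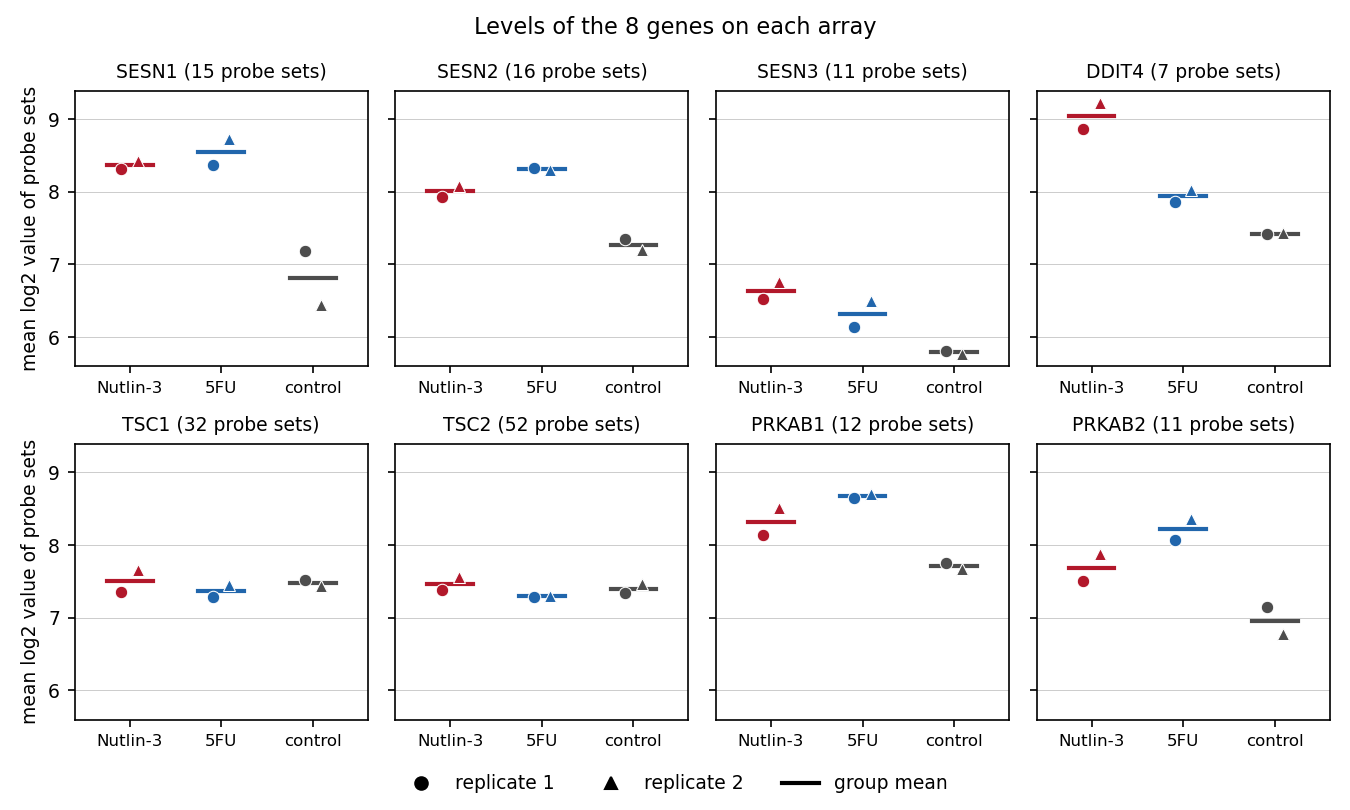
Level of each of the 8 genes on every array (y axis: mean log2 value of the used probe sets; circles are replicate 1, triangles replicate 2, bars group means). Both drugs' arrays lie above both control arrays for the 3 sestrins, DDIT4, PRKAB1 and PRKAB2 (16.2% of all genes for Nutlin-3, 20% for 5FU). The drugs' arrays do not overlap in 6 genes, 3 higher with Nutlin-3 (20.8% of all genes) and 3 higher with 5FU (25.2%). Among them is DDIT4 (8.87 and 9.22 after Nutlin-3, 7.86 and 8.03 after 5FU). Heights are not comparable between genes.

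SESN1 had levels of 8.32 and 8.43 after Nutlin-3, 8.36 and 8.73 after 5FU, and 7.19 and 6.44 in control. The arrays of both drugs lay above both control arrays, and the control arrays differed from each other more than the arrays of either drug did. After Nutlin-3 SESN1 rose 2.95-fold (log2 difference 1.56 ± 0.26 SE, limma adjusted p = 0.0446), a difference that ranked 16 of 17841 from the highest. After 5FU the difference was 1.74 ± 0.26, or 3.33-fold, and ranked 14, but its adjusted p was 0.056. The direct difference of Nutlin-3 minus 5FU was -0.17 (95% interval -0.78 to 0.43, adjusted p = 0.81). SESN1 lost its call after Nutlin-3 without any 1 of the 6 arrays (adjusted p 0.0527 to 0.149), and its difference was 1.94 without control replicate 1 and 1.18 without control replicate 2. It gained a call after 5FU with upper-quartile probe sets alone (1.76, adjusted p = 0.0163), with all probe sets (1.70, adjusted p = 0.0462) and with the median of probe sets (2.18, adjusted p = 0.0292).

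The response of SESN1 was split among its probe sets. Of 15 used, 12 were at least 1 higher after Nutlin-3, by 1.24 to 2.69, where 1.21% of 269135 named probe sets were, and the same number were at least 1 higher after 5FU, by 1.37 to 2.94, where 2.32% were. Probe set 2968662 had the largest difference with both drugs, with values of 6.58 and 6.94 after Nutlin-3, 6.58 and 7.43 after 5FU, and 4.97 and 3.17 in control. Its control mean lay below the filter, and it was the single used probe set of SESN1 of which this was true. The other 3 used probe sets, 2968677, 2968678 and 2968694, differed from control by 0.22, -0.12 and -0.29 after Nutlin-3 and by 0.16, -0.02 and 0.23 after 5FU. They are the 3 highest in number among those used. Probe set 2968678 had the highest level of any in the gene, 10.50 and 10.53 after Nutlin-3, 10.89 and 10.34 after 5FU, and 10.61 and 10.66 in control, so both Nutlin-3 arrays lay just below both control arrays there, and the 5FU arrays on either side of them. SESN1 has transcripts from several promoters. Which exon each probe set covers is not given in the sources used here, and whether the split follows transcripts was not tested.

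SESN2 had levels of 7.93 and 8.08 after Nutlin-3, 8.33 and 8.29 after 5FU, and 7.35 and 7.19 in control. The groups did not overlap, and both 5FU arrays lay above both Nutlin-3 arrays. After 5FU SESN2 rose 2.06-fold (log2 difference 1.04 ± 0.14 SE, limma adjusted p = 0.0385), and after Nutlin-3 its difference was 0.74 ± 0.14, or 1.67-fold, with an adjusted p of 0.0648. Nutlin-3 minus 5FU gave -0.30 (95% interval -0.63 to 0.02, adjusted p = 0.404). The call after 5FU was lost without any 1 of the 6 arrays (adjusted p 0.0558 to 0.312), and SESN2 passed after Nutlin-3 with upper-quartile probe sets alone (0.72, adjusted p = 0.0329).

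Among the 16 probe sets of SESN2, 15 were higher after Nutlin-3 and 16 after 5FU, and 48.6% and 49.9% of all named probe sets were. Those at least 1 higher numbered 4 after Nutlin-3 (1.21% of named probe sets) and 8 after 5FU (2.32%). Probe set 2327397 had a control mean of 4.71, just below the filter, and was 0.69 higher with each drug. Probe set 2327409 had the largest difference after 5FU, 2.14, with values of 8.57 and 8.96 after 5FU against 7.07 and 6.17 in control; after Nutlin-3 it had 7.56 and 7.99. Probe set 2327403 had the largest difference after Nutlin-3, 1.36, with values of 8.83 and 9.27 against 8.02 and 7.35 in control. As in SESN1, responses were small in probe sets at 1 end of the number order. The 4 lowest numbers, 2327393 to 2327396, differed from control by 0.06, 0.30, 0.22 and -0.03 after Nutlin-3 and by 0.43, 0.04, 0.23 and 0.14 after 5FU.

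SESN3 had levels of 6.52 and 6.76 after Nutlin-3, 6.13 and 6.49 after 5FU, and 5.81 and 5.77 in control. Both drugs' arrays lay above the control arrays, and both Nutlin-3 arrays above both 5FU arrays. The difference from control was 0.85 ± 0.17 SE after Nutlin-3 (1.80-fold, limma adjusted p = 0.0821) and 0.52 ± 0.17 after 5FU (1.44-fold, adjusted p = 0.329). Nutlin-3 minus 5FU gave 0.33 (95% interval -0.07 to 0.73, adjusted p = 0.47), so this paralog, unlike SESN1 and SESN2, had the larger value with Nutlin-3, a contrast among genes that was not tested. With upper-quartile probe sets alone the SESN3 difference was 0.48 after Nutlin-3 (adjusted p = 0.154) and 0.20 after 5FU (95% interval -0.11 to 0.50, adjusted p = 0.677).

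The 11 used probe sets of SESN3, of 14 listed, differed from control by -0.02 to 2.25 after Nutlin-3 and by -0.14 to 1.38 after 5FU. At least 1 higher were 4 after Nutlin-3 (1.21% of named probe sets) and 2 after 5FU (2.32%). Probe set 3387264 had 5.61 and 5.98 after Nutlin-3, 4.80 and 4.90 after 5FU, and 3.67 and 3.42 in control. Its mean over the 6 arrays, 4.73, lay at the filter, and its control values below it, so it was used only through its drug arrays. It is among the probe sets at least 1 higher with each drug, and it enters the SESN3 level. Probe set 3387272 had 6.78 and 6.78 after Nutlin-3, 6.05 and 6.67 after 5FU, and 4.24 and 5.71 in control. The 3 highest in number, 3387286 to 3387288, differed by 0.09, 0.47 and -0.02 after Nutlin-3 and by 0.13, -0.14 and -0.10 after 5FU.

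DDIT4 had levels of 8.87 and 9.22 after Nutlin-3, 7.86 and 8.03 after 5FU, and 7.42 and 7.43 in control. The 3 groups did not overlap, with Nutlin-3 far above 5FU and 5FU above control. DDIT4 rose 3.08-fold after Nutlin-3 (log2 difference 1.62 ± 0.16 SE, limma adjusted p = 0.0099), ranking 15 of 17841, directly above SESN1. After 5FU the difference was 0.52 ± 0.16, or 1.43-fold, with an adjusted p of 0.307 and a rank of 771. The direct comparison put DDIT4 2.15-fold higher after Nutlin-3 than after 5FU (log2 difference 1.10, 95% interval 0.72 to 1.48, adjusted p = 0.0442), and this difference ranked 10 of 17841. The call against control was lost without control replicate 1 (adjusted p = 0.0679) and with the replicate number as a block (adjusted p = 0.0637), and it held without each of the other 5 arrays. The call between the drugs was lost without any 1 of the 6 arrays (adjusted p 0.0642 to 0.307), while the difference stayed between 0.93 and 1.28. It was also lost with all probe sets (adjusted p = 0.0689), the median of probe sets (0.0785), centred arrays (0.0817), trend and robust variances (0.0513) and the replicate block (0.164).

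In 7 of the 7 used probe sets of DDIT4 both Nutlin-3 arrays lay above both control arrays (16.8% of named probe sets), by 0.95 to 2.20. The difference was at least 1 in 6 of them (1.21% of named probe sets). After 5FU the 7 differed from control by 0.04 to 0.96, and 0 of 7 reached 1 (2.32%). Both 5FU arrays lay above both control arrays in 6 (19.3%). In 7 of 7 the Nutlin-3 mean exceeded the 5FU mean, and in 6 of 7 both Nutlin-3 arrays lay above both 5FU arrays, as in 20.3% of named probe sets; these probe sets read the same gene on the same arrays and are not replicates. Probe set 3251408 had the largest difference with both drugs, with 9.24 and 9.53 after Nutlin-3, 7.80 and 8.50 after 5FU, and 7.62 and 6.75 in control. Probe set 3251403, the brightest of the gene, had 11.06 and 10.80 after Nutlin-3, 9.66 and 9.53 after 5FU, and 9.06 and 9.34 in control. The unused probe set 3251410 stayed between 1.84 and 2.31 on all 6 arrays.

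**Figure D2:**
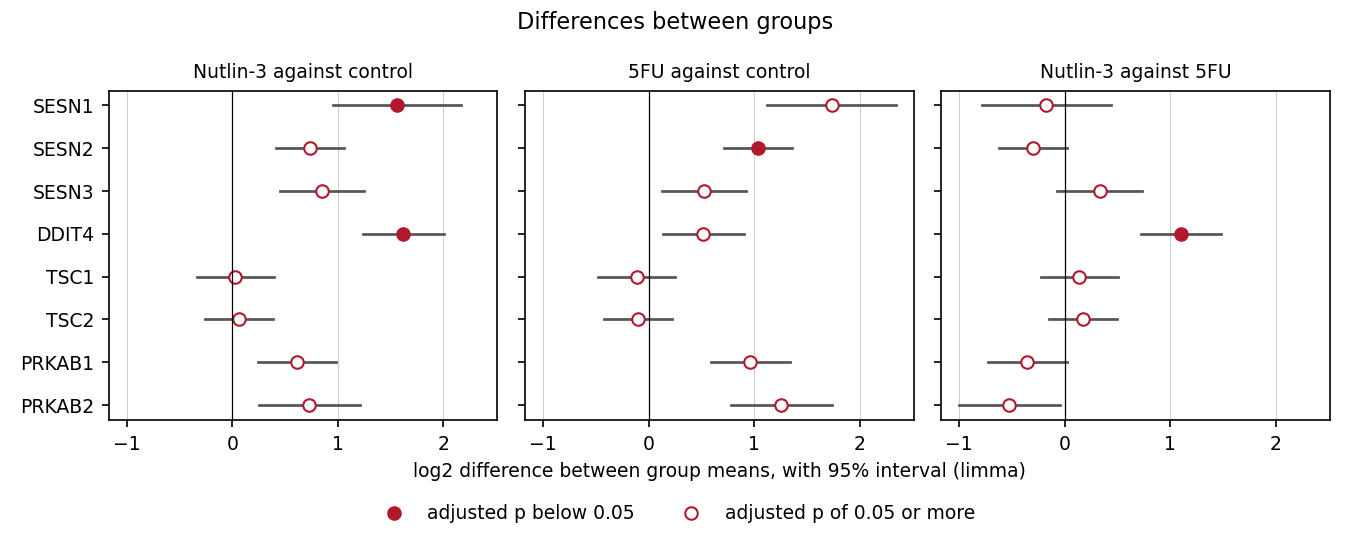
Log2 difference of each gene's group means with its 95% interval from limma, for Nutlin-3 against control, 5FU against control and Nutlin-3 against 5FU (x axis, log2 scale; filled circles have an adjusted p below 0.05). SESN1 and DDIT4 are filled for Nutlin-3, SESN2 for 5FU, and DDIT4 (1.10) between the drugs; the intervals of TSC1 and TSC2 include 0 throughout.

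The promoter windows of the 3 genes that passed a test are shown so that motifs of the factors known to act on them can be read in place. Each is the 250 bases before the gene's start in the RefSeq table of GRCh38.p14, where 8 of 8 members were matched: chr6:109008989-109009238 on the minus strand for SESN1, chr10:72273674-72273923 on the plus strand for DDIT4 and chr1:28259268-28259517 on the plus strand for SESN2. Capitals mark a match to the p53 half-site in SESN1 and to ACGTG, 1 form of the hypoxia response core, in DDIT4.
SESN1: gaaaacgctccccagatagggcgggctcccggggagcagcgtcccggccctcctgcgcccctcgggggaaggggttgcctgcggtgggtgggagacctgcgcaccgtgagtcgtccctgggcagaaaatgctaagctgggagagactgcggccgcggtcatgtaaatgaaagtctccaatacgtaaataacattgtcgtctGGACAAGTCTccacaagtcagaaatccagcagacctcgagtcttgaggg
DDIT4: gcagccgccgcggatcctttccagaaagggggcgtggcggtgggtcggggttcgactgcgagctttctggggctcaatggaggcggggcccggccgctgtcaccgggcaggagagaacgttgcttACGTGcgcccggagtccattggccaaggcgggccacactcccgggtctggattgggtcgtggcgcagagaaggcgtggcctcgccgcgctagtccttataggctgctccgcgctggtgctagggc
SESN2: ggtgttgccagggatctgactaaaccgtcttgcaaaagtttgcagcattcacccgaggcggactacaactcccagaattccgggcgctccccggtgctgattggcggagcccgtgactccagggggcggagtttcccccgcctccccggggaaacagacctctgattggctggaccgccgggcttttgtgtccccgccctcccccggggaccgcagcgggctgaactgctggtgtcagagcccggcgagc
The SESN1 match to the p53 half-site lies 49 to 40 bases before the start; 5.57% of the 35116 windows of this length hold 1 on either strand, and SESN1 was the single member that did. The letters ACGTG lie 125 to 121 bases before the start of DDIT4, again in 1 of 8 members, and 18.5% of all windows hold them. The form GCGTG of the core was not searched or marked, and it occurs in the windows of DDIT4, PRKAB1 and PRKAB2. A match to ACGTG therefore does not set DDIT4 apart as the single member with a hypoxia core. The amino-acid response element TGATGCAA, the CRE TGACGTCA, the related TGACGCAA, the E-box CACGTG (which contains ACGTG) and the antioxidant core TGACNNNGC matched 0 of 8 members, and 0.772%, 1.65%, 0.478%, 6.34% and 10.9% of all windows. Both strands were searched for every motif. CCAAT was found in SESN1, SESN2, DDIT4 and PRKAB2 (32% of windows) and GGGCGG in SESN1, SESN2, TSC1, TSC2 and PRKAB2 (42.6%). A match is a run of letters and not a bound site, and RefSeq's window is at 1 start per gene, so sites further away are outside it.

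PRKAB1, the beta 1 subunit of AMPK, had levels of 8.14 and 8.50 after Nutlin-3, 8.65 and 8.70 after 5FU, and 7.75 and 7.67 in control. The groups did not overlap, with 5FU highest. It was 1.53-fold higher after Nutlin-3 (log2 difference 0.61 ± 0.16 SE, limma adjusted p = 0.181) and 1.95-fold higher after 5FU (0.97 ± 0.16, adjusted p = 0.075), and neither passed. Nutlin-3 minus 5FU was -0.35 (95% interval -0.73 to 0.02, adjusted p = 0.402). Every 1 of its 12 probe sets was higher than control with either drug, by 0.16 to 1.00 after Nutlin-3 and by 0.52 to 1.58 after 5FU. In 12 of 12 the 5FU mean exceeded the Nutlin-3 mean, a direction whose share over named probe sets is not reported here. In 6 both Nutlin-3 arrays lay below both 5FU arrays, as in 22.5% of named probe sets. These probe sets read the same gene on the same arrays and are not replicates. Probe set 3434158 had the largest difference after 5FU, with 9.22 and 9.48 after 5FU against 7.73 and 7.82 in control, and 8.25 and 9.10 after Nutlin-3.

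PRKAB2, the beta 2 subunit, had levels of 7.50 and 7.87 after Nutlin-3, 8.07 and 8.36 after 5FU, and 7.14 and 6.77 in control. It showed the same order of groups as PRKAB1, again without overlap. After 5FU it was 2.39-fold higher than control (log2 difference 1.26 ± 0.20 SE, limma adjusted p = 0.0725, rank 56 of 17841) and after Nutlin-3 1.66-fold higher (0.73 ± 0.20, adjusted p = 0.22). Nutlin-3 minus 5FU gave -0.53 ± 0.20 SE (adjusted p = 0.333). With upper-quartile probe sets alone both beta subunits passed after 5FU (PRKAB1 0.97, adjusted p = 0.0405; PRKAB2 1.24, adjusted p = 0.0456). All 11 probe sets of PRKAB2 were higher than control with either drug. At least 1 higher were 8 after 5FU (2.32% of named probe sets), against 3 after Nutlin-3 (1.21%). Probe set 2433212 had the largest difference with both drugs, with 6.27 and 6.96 after Nutlin-3, 6.87 and 7.28 after 5FU, and 5.35 and 4.77 in control.

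TSC1, or hamartin, had levels of 7.36 and 7.66 after Nutlin-3, 7.28 and 7.45 after 5FU, and 7.52 and 7.44 in control, and the groups overlapped. TSC2, or tuberin, the GTPase-activating subunit, had 7.38 and 7.55 after Nutlin-3, 7.29 and 7.30 after 5FU, and 7.34 and 7.46 in control. The differences after Nutlin-3 were 0.03 (95% interval -0.34 to 0.39, limma adjusted p = 0.986) for TSC1 and 0.07 (-0.26 to 0.39, adjusted p = 0.95) for TSC2, and the sign of each turned under some alternatives (TSC1 -0.07 with the median of probe sets, TSC2 -0.02 without Nutlin-3 replicate 2). After 5FU they were -0.11 (-0.48 to 0.25, adjusted p = 0.919) and -0.10 (-0.42 to 0.22, adjusted p = 0.915). Of these 4 intervals the limit farthest from 0 was -0.48, of TSC1 after 5FU, so larger changes lie outside them. TSC1 and TSC2 had the most probe sets of the 8 genes, 32 and 52 used, and 0 of them were at least 1 higher with either drug. Single probe sets ranged from -0.41 to 0.41 in TSC1 and from -0.47 to 0.55 in TSC2 after Nutlin-3, and from -0.53 to 0.42 and from -0.62 to 0.30 after 5FU. The Nutlin-3 mean exceeded the 5FU mean in 23 of 32 used probe sets of TSC1 and 46 of 52 of TSC2. In 14 of TSC1 and 20 of TSC2 both Nutlin-3 arrays lay above both 5FU arrays (20.3% of named probe sets). The reverse held in 3 and 1 (22.5%). The share of named probe sets with a higher mean after Nutlin-3 than 5FU is not reported here.

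**Figure D3:**
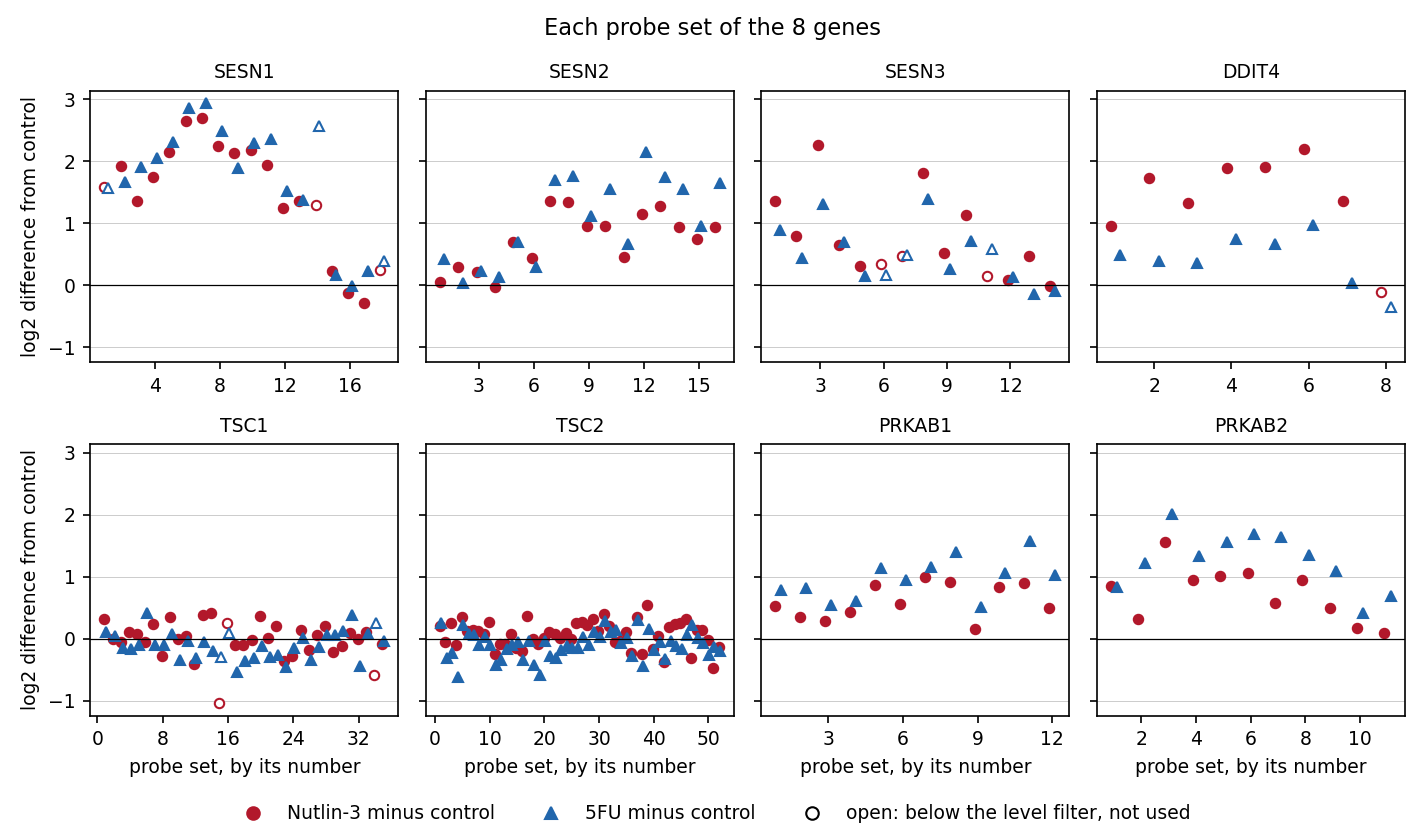
Difference from control of every probe set of the 8 genes (y axis, log2 scale; circles Nutlin-3, triangles 5FU; open marks were below the filter and not used), placed by probe set number, which is not a map of exons. SESN1 has 12 used probe sets at least 1 higher with each drug beside 3 near 0. DDIT4 lies higher with Nutlin-3 than 5FU in 7 of 7 used, and PRKAB1 higher with 5FU in 12 of 12. By smaller amounts, TSC2 lies higher with Nutlin-3 than 5FU in 46 of 52 used and TSC1 in 23 of 32. Probe sets of a gene are read on the same arrays and are not replicates.

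No single probe set of a member passed limma over 705699 probe sets in any comparison, while at an unadjusted p below 0.05 there were 44 of the 156 used after Nutlin-3, 47 after 5FU and 11 between the drugs. Over all probe sets limma called 0, 0 and 10 (0.00142%), with 43352, 44222 and 52116 at an unadjusted p below 0.05.

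Few genes in the rest of the mTORC1 pathway passed the test. Lists of 78 further genes, covering mTORC1 itself, GATOR and KICSTOR, the Rag GTPases and Ragulator, the other AMPK subunits and their upstream kinases, growth-factor input and mTORC1 outputs, had 71 measured genes, with a median difference of -0.004 after Nutlin-3 and -0.02 after 5FU. After Nutlin-3 0 of 71 rose and 1 fell, and after 5FU limma called 0, with 5 and 8 genes at an unadjusted p below 0.05 in either direction, beside 10.2% and 10.7% of all genes. These shares of the 71 are near those of all genes. The gene that fell was TTI1, part of the TELO2-TTI1 co-chaperone that stabilises mTOR and related kinases. Its levels were 7.20 ± 0.19 after Nutlin-3, 8.03 ± 0.20 after 5FU and 8.19 ± 0.07 in control (SD, n = 2 each). Nutlin-3 minus control was -0.99 for TTI1 (limma adjusted p = 0.0451), and its call under other settings is not reported here. The list of mTORC1 itself with RHEB had medians of -0.14 after Nutlin-3 and -0.13 after 5FU, with 7 of 8 measured genes lower in each. Rag GTPases and Ragulator had medians of 0.02 and 0.16, with 7 and 9 of 12 higher and 0 called in each. The other AMPK subunits and upstream kinases had medians of 0.01 after Nutlin-3 and -0.14 after 5FU, with 0 of 10 called in each. Their lowest value was that of CAMKK2, at -0.74 after 5FU. mTORC1 outputs had medians of -0.02 and 0.03, with 0 of 14 called in each. The highest value was that of PDCD4, at 1.02 after Nutlin-3 (limma adjusted p = 0.195), and the lowest that of RPS6KB1, at -0.80 after 5FU. PDCD4 encodes a translation inhibitor whose protein is degraded downstream of mTORC1, and only its RNA was measured here. DDIT4L, the paralog of DDIT4, differed by 0.13 after Nutlin-3 (adjusted p = 0.848) and 0.26 after 5FU (adjusted p = 0.531).

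The 8 genes were also set beside targets of the factors known to act on them. Of 21 other p53 targets, 14 rose after Nutlin-3 (0.359% of all genes) with a median of 1.17, led by TP53I3, TP53INP1 and GDF15. After 5FU 13 rose (0.331% of all genes) with a median of 1.25, led by TP53I3, GDF15 and FAS. Between the drugs 0 of these 21 passed limma and 7 had an unadjusted p below 0.05, where 13.3% of all genes had such a p, with a median of 0.10 for Nutlin-3 minus 5FU. ATF4 and its targets had medians of 0.18 after Nutlin-3 and 0.01 after 5FU, with 0 of 16 called in each and 4 and 5 at an unadjusted p below 0.05, beside the 10.2% and 10.7% of all genes. Between the drugs 0 of the 16 passed limma and 7 had an unadjusted p below 0.05, with 12 of 16 higher after Nutlin-3 and a median of 0.12. The list's largest difference between the drugs was that of SLC7A11, the cystine transporter, at 1.61 (adjusted p = 0.0788), which exceeds that of DDIT4; SLC7A11 differed from control by 0.47 after Nutlin-3 (adjusted p = 0.714) and by -1.14 after 5FU (adjusted p = 0.216). ASNS, asparagine synthetase, had the list's largest difference after Nutlin-3, 0.83 (limma adjusted p = 0.17), with 0.21 after 5FU (adjusted p = 0.865). ATF4 itself differed by -0.04 and -0.10. In the other direction, 4 of the 16 were lower after Nutlin-3 than after 5FU, with PPP1R15A lowest at -0.62. ATF3 had the list's highest difference from control after 5FU, 0.67. Hypoxia targets had medians of 0.02 and 0.13, with 2 of 15 at an unadjusted p below 0.05 after each drug. Of the 15, 1 rose after Nutlin-3 (0.359% of all genes), the glucose transporter SLC2A1 (0.75, limma adjusted p = 0.048). After 5FU SLC2A1 differed by 0.69 (adjusted p = 0.102). Its call under other settings is not reported here. FOXO factors and targets had medians of 0.10 and 0.22, glucocorticoid targets -0.05 and 0.07, and NRF2, KEAP1 and antioxidant targets -0.11 and 0.18, with 0 genes of these 3 lists called after either drug; at an unadjusted p below 0.05 there were 3, 1 and 0 after Nutlin-3 and 2, 3 and 1 after 5FU.

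**Figure D4:**
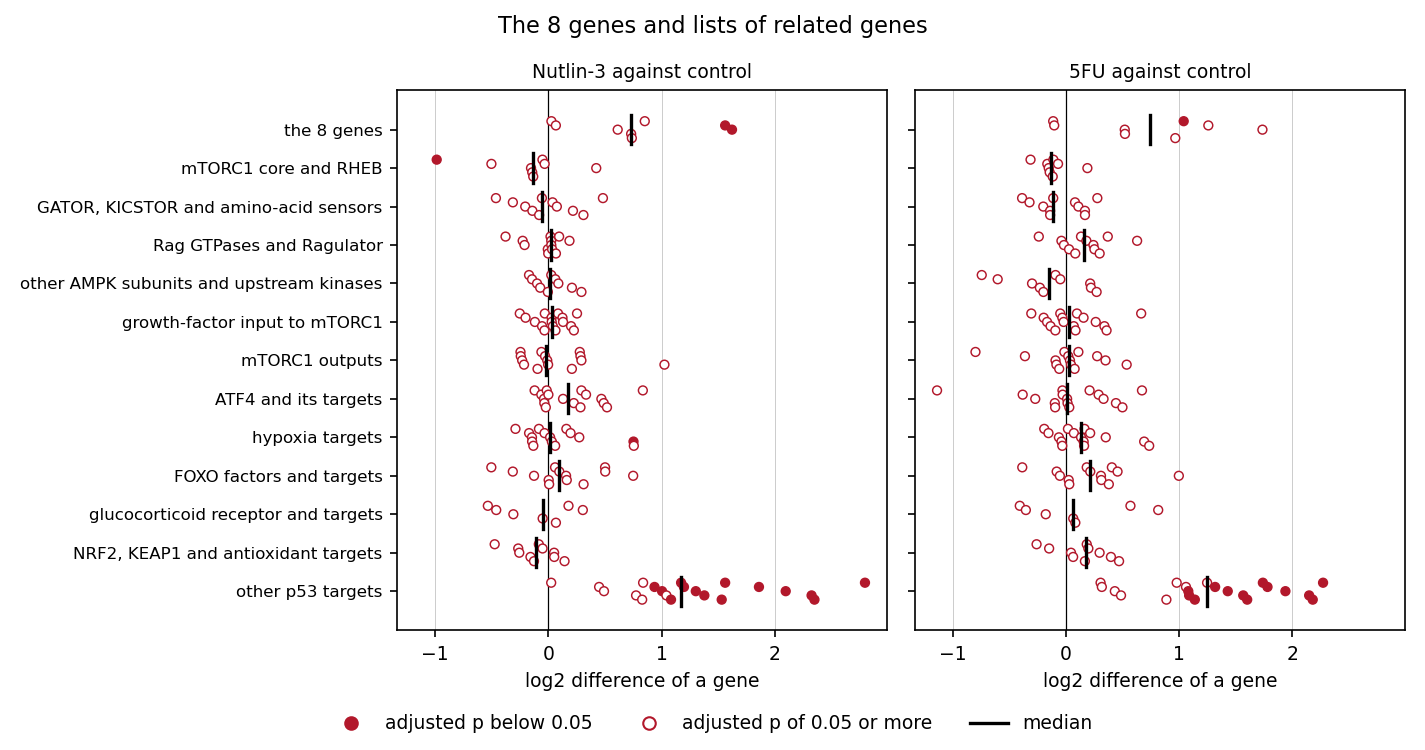
Log2 difference of each gene from control (x axis) for the 8 genes and for 12 lists of related genes, after Nutlin-3 and after 5FU (filled: adjusted p below 0.05; bars: medians). The 8 genes have medians of 0.73 and 0.74 and the other p53 targets 1.17 and 1.25, while the medians of the 6 mTORC1 lists lie between -0.14 and 0.16.

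For the 4 members whose group means differed by at least 1, the genes with the closest profile were sought as those with the smallest root mean square difference over the 6 arrays, each gene centred on its own mean. Closest to SESN1 were GALNT5 (0.0953), PLCXD2 (0.161) and SLC44A5 (0.163). Closest to SESN2 were the receptor tyrosine kinase EPHA2 (0.0683), the syndecan SDC4 (0.0694) and the transcription factor STAT3 (0.0726). Closest to PRKAB2 were INPP1 (0.0894), TOB1 (0.0992) and ERAP2 (0.1). The profile of DDIT4 had no gene as near: the closest were ABCA12 (0.255), the long noncoding RNA NEAT1 (0.258) and NADSYN1 (0.267). ABCA12 differed from control by 2.08 after Nutlin-3 and 1.10 after 5FU, NEAT1 by 1.22 and -0.05, and NADSYN1 by 1.07 and 0.42. These genes were picked for likeness to DDIT4 on the same arrays, so a higher value with Nutlin-3 follows from the choice.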

How the data were processed

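RNA of 6 HCT116 samples was hybridised to Affymetrix Human Exon arrays. The deposited values are log2 expression per probe set, made by the authors with RMA, per the submitters' processing notes; its version and settings, the genome build and any array batches were not given in the sources used here. Array medians were 4.73 to 4.78, and 0 values of 1411399 probe sets were missing. Groups and replicate numbers came from sample titles. Nothing in the labels says whether replicates came from separate cultures, so the spread against which limma sets a difference may be technical. Having 2 arrays a group limits the precision.

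Genes were assigned to probe sets from GEO's platform table: 357604 had 1 symbol, 15322 several and 1038473 none. Symbols were updated through the RefSeq table of GRCh38.p14 (16472 current, 2966 updated, 122 kept). None of the members' probe sets carried a second symbol. A gene value is the mean of its probe sets above the median of probe-set means (4.73), with at least 2. All 3 groups were fitted in 1 model with limma 3.58.1 in R 4.3.3 (no block, 3 residual degrees of freedom), with Benjamini-Hochberg adjustment over 17841 genes. An exact permutation test of 2 arrays against 2 cannot go below 0.333. The scripts were tested on simulated data. The members and lists were chosen with earlier results of these data known.

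Genes were named by rule: the 8 members, MDM2 and CDKN1A, up to 3 called genes of each list with the largest difference from control, the 3 nearest profiles, and each member's extreme probe sets. ASNS, SLC7A11, PPP1R15A, ATF3, PDCD4, RPS6KB1, CAMKK2, DDIT4L, ATF4 and further probe sets were chosen after their values were seen. The alternatives were other probe-set filters, the median of probe sets, at least 4 probe sets a gene, arrays centred on their medians, trend and robust variances, the replicate number as a block, single probe sets, and each array left out. Same-numbered arrays of the drugs deviated together, but those of a drug and control deviated oppositely, so the numbers were not taken as pairs. The correlation across genes of replicate 1 deviations from group means was -0.565 for Nutlin-3 and control, -0.525 for 5FU and control, and 0.634 for Nutlin-3 and 5FU. Any effect shared by such arrays stays in the residual spread of the main fit, also for Nutlin-3 against 5FU. The block with exchanged control numbers was added for this reason.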

Additional observations from a re-analysis of the deposited data

Results flagged for a closer look

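DDIT4 was the 1 member that passed the direct test between the drugs. Nutlin-3 minus 5FU was 1.10 on the log2 scale (limma adjusted p = 0.0442). The group means were 9.05 after Nutlin-3, 7.94 after 5FU and 7.42 in control. The call was lost under 5 other settings and without any 1 of the 6 arrays (adjusted p 0.0513 to 0.307). Both Nutlin-3 arrays lay above both 5FU arrays, and both 5FU arrays above both control arrays. Groups of 2 arrays are too small for a test of single outlying arrays.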

How the results depend on the processing

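For the 4 called member differences, 22 of 52 values under other settings, the exchanged block below left out, kept the call, 30 lost it and 0 changed direction. Genes called numbered 217 after Nutlin-3 and 80 after 5FU, each relative to control, and 113 between the drugs, and members 2, 1 and 1. In the same order, upper-quartile probe sets gave 380, 151 and 234 genes, with 4 members for 5FU against control, and arrays centred on their medians 127, 14 and 37 genes with 1, 0 and 0 members (6, 6 and 2 at an unadjusted p below 0.05). For Nutlin-3 against 5FU all probe sets gave 69 genes and 0 members, the median of probe sets 69 genes and 0 members, and trend and robust variances 0 members (3, 3 and 2 members at an unadjusted p below 0.05). For 5FU against control all probe sets gave 2 members and the median of probe sets 39 genes. Single probe sets gave 0 members throughout. With the replicate number as a block limma called 2, 1 and 0 genes and 0 members throughout, with 1441, 1444 and 1821 genes at an unadjusted p below 0.05. A block with the control numbers exchanged, chosen after the data were seen, called 1788, 1882 and 2821 genes and 6, 6 and 2 members; it kept 4 of 4 calls and added 10. Leaving out 1 array gave 5 to 149, 1 to 63 and 3 to 104 genes, and 0 to 1, 0 to 0 and 0 to 0 members.

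SESN1 after Nutlin-3 lost its call with centred arrays (1.55) and the replicate block (1.56), and ranged from 1.18 to 1.94 with 1 array left out. DDIT4 after Nutlin-3 lost it with the replicate block (1.62) and ranged from 1.45 to 1.80. SESN2 after 5FU lost it with the median of probe sets (1.25), centred arrays (1.04) and the replicate block (1.04), and ranged from 0.96 to 1.12. DDIT4 between the drugs lost it with all probe sets (0.99), the median of probe sets (1.20), centred arrays (1.09), trend and robust variances (1.10) and the replicate block (1.10), and ranged from 0.93 to 1.28. The cause was not tested. Of 260 values of uncalled member differences under the same settings, 6 gained a call and 8 turned sign: TSC1 and TSC2, and SESN1 between the drugs.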
